A study of Rattus norvegicus with 8 samples.

Results

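The genes of interleukin-6 and interleukin-1 signalling through STAT3, and the acute phase proteins that this signalling controls in liver, were followed through 10 genes on 8 liver arrays. Members were all probe sets whose only gene symbol in the platform annotation was Stat3, Il6r, Il6st, Jak1, Socs3, Il1r1, A2m, Crp, Hp or Orm1. Each of the 10 genes had a probe set, and together they held 17 of the 31099 probe sets of the array: 13 for the 6 receptors and signal carriers and 4 for the 4 secreted acute phase products. A probe set is a group of short probes directed at one transcript.

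The livers were those of 8-week-old male rats of the outbred Sprague-Dawley strain. The hydrogen water group had free access for 4 weeks to drinking water with 0.7 mM dissolved hydrogen, which the sample labels call hydrogen-saturated. The control group drank sterilized distilled water over the same 4 weeks. Both groups ate the same commercial diet. The study kept 8 rats per group, and 4 arrays per group were analysed here. Neither the rat behind an array nor any pooling of RNA is stated, and the p-values therefore rest on the spread among arrays, which may be partly technical. Whole liver RNA was used, so that fewer cells of a type and less RNA per cell cannot be told apart.

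Interleukin-6 binds its receptor, encoded by Il6r, and the complex engages gp130, the shared signalling chain encoded by Il6st. Kinases bound to gp130, among them JAK1, then phosphorylate STAT3, which enters the nucleus and switches on target genes. SOCS3, itself a STAT3 target, binds gp130 and the kinases and ends the signal. Interleukin-1, through its receptor IL1R1 and NF-kB, acts together with interleukin-6 on the hepatocyte, which answers infection or injury by secreting acute phase proteins. In the rat, alpha-2-macroglobulin (A2m) is a strongly inducible acute phase protein, whereas C-reactive protein (Crp) circulates at a high level in healthy animals.

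Values below are log2 signals after quantile normalization, with a pseudocount of 2.05 added to each signal, and differences are hydrogen water minus control. A probe set was called when its limma p-value, adjusted over all 15521 probe sets tested, lay under 0.05. In all, 128 of the 15521, or 0.825%, were called, 69 higher and 59 lower with hydrogen water. The split depended on the scaling, with 55 of 187 calls higher after median centring, 102 of 144 after scaling by spike-in controls and 21 of 505 without normalization. The hydrogen water arrays were dimmer, with 2% trimmed mean signals of 91.5 ± 10.4 against 115 ± 18.7 in controls (SD, n = 4 each; two-sided exact permutation p = 0.114). Their log2 ratio of 3′ to 5′ Gapdh signal, a measure of RNA integrity, was 0.38 ± 0.08 against 0.22 ± 0.10 in controls (SD, n = 4 each; two-sided exact permutation p = 0.0571). The same ratio for actin was 1.64 ± 0.05 against 1.60 ± 0.03 in controls (SD, n = 4 each; two-sided exact permutation p = 0.343). Spike-in controls had a mean log2 deposited signal of 9.05 ± 0.08 on hydrogen water arrays and 9.44 ± 0.30 on control arrays (SD, n = 4 each; two-sided exact permutation p = 0.0857). The source of the dimness was not tested.

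Of these 10 genes, Stat3 alone rose with hydrogen water, at both of its probe sets and by 1.88-fold and 1.71-fold. The interleukin receptors Il6r and Il1r1 differed in the same direction, by 1.63-fold and 1.52-fold at their brightest probe sets, and missed the threshold (adjusted p = 0.0504 and 0.0765). The shared chain Il6st and the kinase Jak1 differed by at most 0.17 on the log2 scale at all 6 of their probe sets. None of the 4 secreted products passed. A2m had the largest difference among them, in the opposite direction, but passed the filter on low signals only through the control arrays. The 2 calls were 12.5% of the 16 member probe sets tested, beside 0.825% of all tested probe sets, and earlier results of these arrays were known when the genes were chosen. Socs3 was too dim to be tested.

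**Figure D1:**
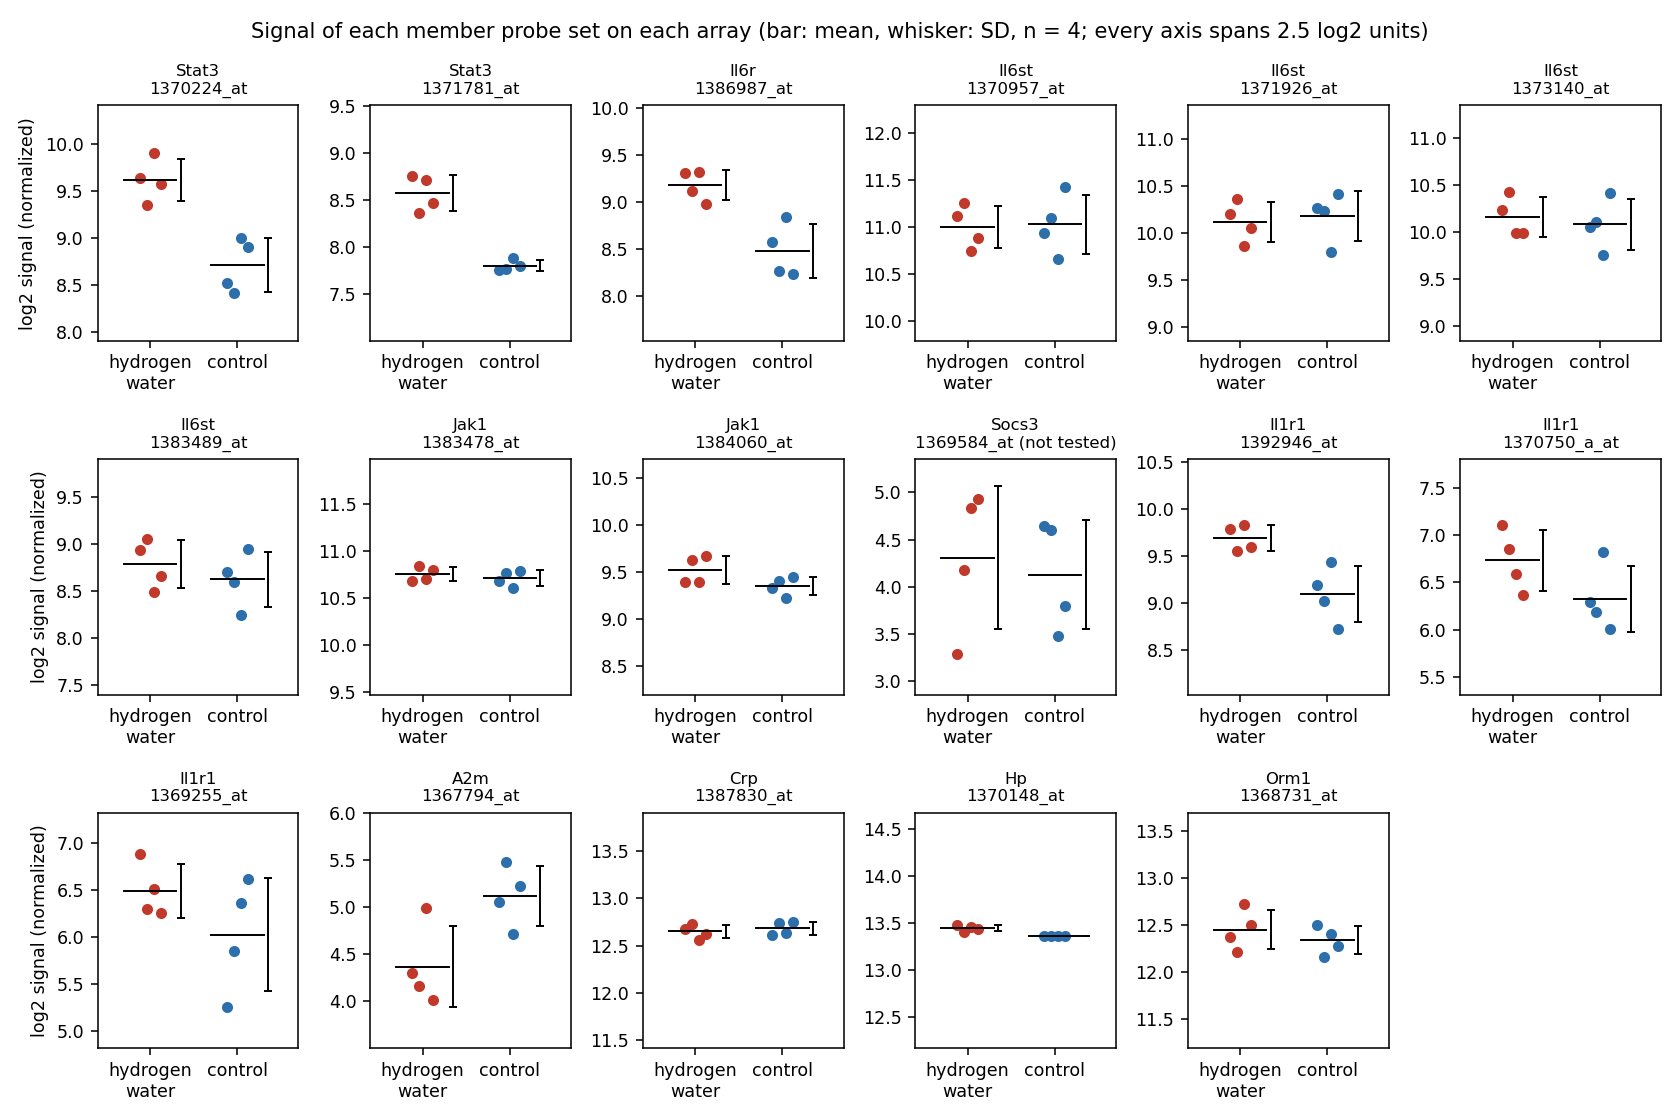
Normalized log2 signal (vertical axis, 2.5 log2 units in every panel) of the 17 member probe sets on each of the 4 hydrogen water arrays (red, left) and 4 control arrays (blue, right), with the mean as a line and the SD as a whisker. The groups are apart at both Stat3 probe sets, at Il6r and at the first Il1r1 probe set, by a smaller step at Hp, and mixed at Il6st, Jak1, Socs3, Crp and Orm1.

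Stat3 encodes the factor that carries the interleukin-6 signal to the nucleus. Its brighter probe set read 9.64, 9.35, 9.90 and 9.57 on the hydrogen water arrays, against 8.52, 8.41, 9.002 and 8.90 on the control arrays. Every hydrogen water value lay above every control value, and the lowest of them exceeded the highest control value by more than the control SD of 0.29. The difference was 0.91 ± 0.15 (SE; 95% interval 0.57 to 1.24, adjusted p = 0.0225). The second probe set read 8.76, 8.37, 8.72 and 8.47 with hydrogen water and 7.76, 7.77, 7.89 and 7.80 in controls. Here too the groups were apart, with an SD of 0.19 over the hydrogen water arrays and of 0.06 over the control arrays (n = 4 each). Its difference was 0.77 ± 0.11 (SE; 95% interval 0.54 to 1.01, adjusted p = 0.0108).

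The second Stat3 probe set remained called when any 1 of the 8 arrays was left out, with adjusted p-values of 0.0113 to 0.0398. The brighter one missed the threshold in 5 of these 8 fits, without hydrogen water array 1 (adjusted p = 0.071), array 3 (0.068) or array 4 (0.0607) and without control array 1 (0.0661) or array 2 (0.0668). Neither passed without normalization, where the differences were 0.58 and 0.44, or with array brightness as a covariate, where they were 0.93 ± 0.22 and 0.69 ± 0.15 (SE; adjusted p = 0.15 and 0.122). Control array 2 was as dim as the hydrogen water arrays, with a trimmed mean of 94.5 beside their range of 80.3 to 103, and its Gapdh ratio of 0.34 also lay within theirs, 0.27 to 0.46. On it the brighter Stat3 probe set read 8.41, the lowest of the 8 arrays, and the second read 7.77, next to the lowest, 7.76 on control array 1. Control arrays 4, 1 and 3, with trimmed means of 104, 130.5 and 131.6, read 8.90, 8.52 and 9.002 at the brighter one. Hydrogen water arrays 1 and 3 were the dimmest of all, at 80.3 and 85.5, and had its highest readings, 9.64 and 9.90. With the Gapdh ratio as a covariate both Stat3 probe sets passed in limma, at 1.18 ± 0.18 and 0.88 ± 0.145 (SE; adjusted p = 0.0179 and 0.0224). The part of brightness and RNA integrity in the Stat3 difference was not tested beyond these values. As deposited, before any normalization, the brighter Stat3 probe set had signals of 614, 614, 797 and 759 with hydrogen water and of 461, 312, 654 and 482 in controls, so that only control array 3 reached into the hydrogen water range.

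Il6r encodes the chain that binds interleukin-6, and its single probe set read 9.30, 9.12, 9.32 and 8.98 with hydrogen water, against 8.57, 8.27, 8.83 and 8.23 in controls. The groups did not overlap. The difference of 0.70 ± 0.14 (SE; 95% interval 0.39 to 1.01) had an unadjusted p of 0.000419 in limma and an adjusted p of 0.0504. It therefore sat at the threshold, and it passed in 7 of 14 other settings and, with single arrays omitted, only without control array 3 (adjusted p = 0.0124). The deposited signals showed less separation, 485 to 524 with hydrogen water and 281 to 581 in controls.

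Il1r1 encodes the signalling receptor for interleukin-1, and its 3 probe sets gave an uneven picture. The brightest read 9.79, 9.56, 9.84 and 9.59 on hydrogen water arrays and 9.19, 9.03, 9.43 and 8.72 on control arrays. These groups did not overlap, and the difference of 0.60 ± 0.14 (SE; 95% interval 0.29 to 0.91) had an adjusted p of 0.0765. It passed in 2 of 14 other settings and in 1 of 8 fits with an array omitted, that without control array 3 (adjusted p = 0.0244), and the other 7 fits gave 0.0964 to 0.19. The other 2 probe sets differed by 0.41 ± 0.20 and 0.46 ± 0.27 (SE; adjusted p = 0.451 and 0.541), and their groups overlapped. Across the 8 arrays the 3 probe sets followed one another only loosely, with Pearson's r of 0.35 to 0.80 over the 3 pairs. The brightest Il1r1 probe set ran closer to Il6r, at r = 0.98 over the 8 arrays and 0.92 after each group's mean was removed. Both probe sets were read on the same 8 arrays, so this is a description only.

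Il6st, the gp130 chain that interleukin-6 shares with related cytokines, was measured by 4 probe sets. The brightest read 11.12, 11.25, 10.75 and 10.88 with hydrogen water and 10.94, 11.10, 10.66 and 11.42 in controls. The control values enclosed those of the hydrogen water arrays, and the difference was −0.03 ± 0.15 (SE; 95% interval −0.37 to 0.31, adjusted p = 0.974). The other 3 probe sets differed by −0.06, 0.08 and 0.16, with intervals that together ran from −0.37 to 0.52. All 4 varied together from array to array within the groups, with r of 0.93 to 0.98 over the 6 pairs once group means were removed. Control array 4 was the highest of the 8 arrays at the brightest of them, and control array 3 the lowest.

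Jak1 encodes a kinase bound to gp130. Its brighter probe set read 10.68, 10.85, 10.70 and 10.80 with hydrogen water, against 10.68, 10.77, 10.61 and 10.79 in controls. The groups overlapped, with 2 hydrogen water values above all controls, and the difference of 0.04 ± 0.07 (SE) had a 95% interval of −0.11 to 0.20. The second probe set differed by 0.17 ± 0.09 (SE; 95% interval −0.04 to 0.38, adjusted p = 0.526). Without normalization the Jak1 differences were −0.24 and −0.15, beside a median of −0.27 over all probe sets other than controls in that setting.

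Socs3, the feedback inhibitor of this pathway, had a single dim probe set that lay below the filter on low signals and was not tested with the others. It read 3.28, 4.18, 4.84 and 4.93 with hydrogen water and 4.64, 4.60, 3.48 and 3.80 in controls. Values were scattered over both groups, and the difference of 0.18 had an SE of 0.42 and an adjusted p of 0.953 when no filter was applied. The deposited signals of 7.15 to 27.6 with hydrogen water and 10.2 to 29.6 in controls cannot be set apart from background, because the sources used here give no detection calls.

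**Figure D2:**
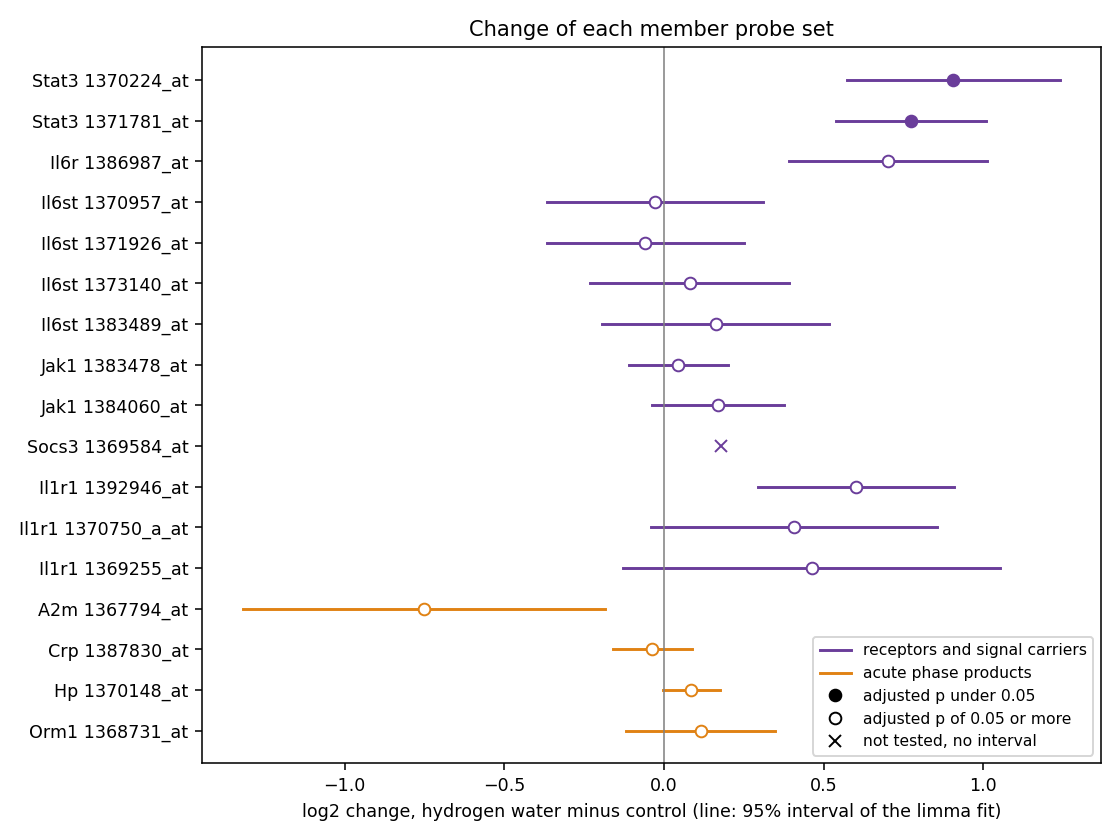
Log2 difference between hydrogen water and control (horizontal axis) for each member probe set, with the 95% interval of the limma fit as a line and filled points for an adjusted p under 0.05. The 2 Stat3 probe sets are the filled points, Il6r and the first Il1r1 probe set have intervals above 0, A2m has an interval below 0 but a hydrogen water mean below the filter, and the intervals of Il6st, Jak1, Crp, Hp and Orm1 include 0.

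Among the secreted products, alpha-2-macroglobulin, a broad protease inhibitor, had the largest difference. A2m read 4.31, 4.16, 4.99 and 4.02 on hydrogen water arrays and 5.06, 5.48, 4.72 and 5.23 on control arrays. Hydrogen water array 3 overlapped the controls, and the other 3 lay below all of them. The difference was −0.75 ± 0.26 (SE; 95% interval −1.32 to −0.19), with an adjusted p of 0.24. The gene was dim throughout, and its hydrogen water mean of 4.37 lay below 4.42, the median over probe sets that served as the filter. In the deposited signals, with no normalization, A2m stood at 13.7 to 24.3 with hydrogen water and 29.0 to 40.6 in controls, and it was called in that setting alone (difference −1.03, adjusted p = 0.0363). The hydrogen water arrays were dimmer throughout in that setting, with a median difference of −0.27 over all probe sets other than controls and 484 of 505 calls lower.

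The other 3 acute phase genes were among the brightest of the array. Haptoglobin (Hp), which binds free hemoglobin, read 13.48, 13.40, 13.46 and 13.44 with hydrogen water. On the control arrays it read 13.36 each time, since it held the same rank on all 4 and quantile normalization gives equal ranks equal values. The groups did not overlap, yet the difference was 0.09 ± 0.04 (SE; adjusted p = 0.426), and without normalization it was −0.11. Quantile normalization ties the values of such bright probe sets to their rank. As deposited, Hp had signals of 10064 to 10861 with hydrogen water and 10026 to 12064 in controls, and these ranges overlapped.

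Crp, the pentraxin that opsonizes damaged cells and bacteria, read 12.68, 12.73, 12.56 and 12.62 with hydrogen water and 12.62, 12.74, 12.64 and 12.75 in controls. The groups overlapped, and the difference of −0.04 ± 0.06 (SE; 95% interval −0.16 to 0.09) turned positive under 3 other scalings. Orm1, which encodes the plasma carrier protein alpha-1-acid glycoprotein, read 12.37, 12.21, 12.72 and 12.49 with hydrogen water and 12.50, 12.16, 12.40 and 12.28 in controls. These values overlapped too, with a difference of 0.11 ± 0.11 (SE; 95% interval −0.12 to 0.35, adjusted p = 0.739). Orm1 was called in 1 setting, with the Gapdh ratio as a covariate, where the difference was 0.42 ± 0.07 (SE; adjusted p = 0.0268).

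The receptors and signal carriers had a median difference of 0.39 over their 6 genes, each through its brightest probe set and Socs3 included. The 4 secreted products had a median of 0.02, and the median over all 9106 tested genes with 1 symbol was −0.002. The highest difference of the first class was 0.91, at Stat3, and the lowest −0.03, at Il6st. In the second class they were 0.11, at Orm1, and −0.75, at A2m. Crp, Hp and Orm1 lay at percentiles 99.8, 99.98 and 99.67 of mean signal, where quantile normalization ties values to rank. A2m lay near the filter. The median near 0 of the secreted products therefore cannot show that their transcripts were unchanged. Each gene was also taken as its deviation from its own mean over all arrays, and the median deviation over the genes of a class was read on each array. For the signal carriers this median deviation was 0.27 ± 0.14 with hydrogen water and −0.20 ± 0.10 in controls (SD, n = 4 each). For the secreted products the same measure was 0.01 ± 0.10 with hydrogen water and 0.01 ± 0.03 in controls (SD, n = 4 each). Without normalization the difference of this measure between the groups was 0.155 for the signal carriers, in place of 0.465, and −0.237 for the secreted products, in place of 0.0049. Groups did not overlap at 5 of the 16 tested member probe sets, all higher with hydrogen water, beside 7.48% of all tested probe sets in either direction and 3.85% in that direction. The 5 were both of Stat3, Il6r, the brightest of Il1r1, and Hp. At Hp the control values were equal because its rank was equal, and its difference was −0.11 without normalization.

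Promoter sequence was examined for Stat3, which rose, and for Orm1, whose level did not pass, with 3 short motifs searched on both strands. They were TTCNNNGAA, the usual STAT site, CTGGGAA, a core of interleukin-6 response elements, and TTGCNNAA, as bound by C/EBP factors. RefSeq promoter windows of the assembly GRCr8, from 250 bases before to 50 after a transcript start, were found for 7 of the 10 genes (Stat3, Il6r, Il6st, Socs3, Il1r1, Crp and Orm1). The first 2 motifs were in 0 of these 7 windows, beside 8.87% and 11.3% of all 33469 windows. The third was in 1 of 7, beside 10.6% of all windows. The transcript start of the Crp and Orm1 windows is the annotated start of the gene, and that of the other 5 lies inside the annotated gene. TTCNNNGAA and CTGGGAA can share bases where both occur. Shown in the direction of transcription are the part of the Stat3 window that lies before the annotated gene, chr10:86363514-86363609 on the minus strand, and the 250 bases before Orm1, chr5:81788259-81788508 on the plus strand. Capitals mark the motif TTGCNNAA, which lies on the minus strand of the Orm1 sequence, 123 to 116 bases before the start.
Stat3: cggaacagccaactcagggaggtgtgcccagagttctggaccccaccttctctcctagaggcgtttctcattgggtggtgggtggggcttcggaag
Orm1: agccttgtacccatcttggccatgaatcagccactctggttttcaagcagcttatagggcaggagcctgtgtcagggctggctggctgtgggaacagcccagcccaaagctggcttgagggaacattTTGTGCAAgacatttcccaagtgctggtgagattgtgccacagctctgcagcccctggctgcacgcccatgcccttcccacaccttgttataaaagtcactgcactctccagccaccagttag
The absence of a match says only that these letters are not in these windows.

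The rest of the pathway was read through lists drawn up from general knowledge. Of 24 listed cytokines and other receptors, 11 genes were tested and 0 passed in limma, with 3 at an unadjusted p under 0.05, beside 12.5% of all tested probe sets, and a median difference of −0.06. These were the cytokine Il1a, at −0.53 ± 0.17 (SE), the interleukin-1 receptor antagonist Il1rn, at 0.70 ± 0.24, and Ctf1, a cytokine of the gp130 family, at 0.52 ± 0.20. Il6 itself, Tnf, Osm, Lif and Il11 were among 10 listed genes below the filter, and the groups overlapped at all 3 genes named. Among 7 other JAK kinases and STAT factors the limma test called 0. Of the 7, 2 reached an unadjusted p under 0.05, beside 12.5% of all tested probe sets. Stat5b and Stat5a, which carry the growth hormone signal, differed by 0.44 ± 0.11 and 0.53 ± 0.15 (SE; adjusted p = 0.0863 and 0.145) without overlap between groups, and the kinase Tyk2 by −0.17 ± 0.11. Over all tested probe sets the groups did not overlap at 7.48%.

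Of 14 tested inhibitors of JAK and STAT signalling, Cish, a SOCS-family inhibitor induced by STAT5, fell, and 13 did not pass. Of the 14, 4 had an unadjusted p under 0.05, beside 12.5% of all tested probe sets. Cish averaged 4.27 ± 0.52 with hydrogen water and 7.94 ± 0.38 in controls (SD, n = 4 each; adjusted p = 0.000377). Its hydrogen water level lay below the filter value of 4.42 and cannot be set apart from background. Socs2, another STAT5 target, had means of 5.38 ± 2.11 with hydrogen water and 8.51 ± 1.10 in controls (SD, n = 4 each; adjusted p = 0.149) and did not pass. The STAT-binding SUMO ligases Pias4 and Pias3 differed by −0.42 ± 0.15 and 0.43 ± 0.19 (SE), neither past the threshold. The list's median difference was −0.07.

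Of 15 tested genes that STAT3 is known to switch on, the growth regulator Myc fell, with means of 5.77 ± 0.71 with hydrogen water and 8.08 ± 0.44 in controls (SD, n = 4 each; adjusted p = 0.0111), and 14 did not pass. Myc has many other regulators besides STAT3. The list's median was −0.06, and 2 of the 15 had an unadjusted p under 0.05, beside 12.5% of all tested probe sets. Vegfa, an angiogenic growth factor, differed by −0.34 ± 0.12 (SE), the acute phase transcription factor Cebpd by −0.68 ± 0.32 and the AP-1 subunit Junb by 0.35 ± 0.18. The groups did not overlap at Vegfa and overlapped at the other 2, and the adjusted p-values of these 3 ran from 0.258 to 0.468.

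Other genes listed as positive in the acute phase, those that increase during inflammation, were represented by 21 tested genes. Through the brightest probe set of each, 0 passed in limma. The median was −0.0076, and 2 genes reached an unadjusted p under 0.05, beside 12.5% of all tested probe sets. Fga, the alpha chain of fibrinogen, is the exception among all their probe sets. Its second probe set fell, with a difference of −0.45 ± 0.07 (SE; adjusted p = 0.0182), whereas its brightest differed by −0.08 ± 0.04 (adjusted p = 0.498), so that the 2 measures of this gene disagree in size. That call was kept in 5 of the 8 fits with an array omitted and in 11 of 14 other settings. Mug1, a protease inhibitor related to A2m, differed by −0.35 ± 0.08 (SE; adjusted p = 0.0808). It stood in this list although in the rat it is known to decrease in inflammation. Without it 20 tested genes remain, with 0 calls in limma, 1 unadjusted p under 0.05 and a median of −0.007. The lipopolysaccharide co-receptor Cd14 differed by 0.27 ± 0.08 and the heme carrier hemopexin (Hpx) by −0.10 ± 0.05 (SE), without overlap between groups at either, and neither passed. Saa3 and Lcn2, both strongly inducible in inflamed liver of the mouse, lay below the filter.

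Negative acute phase proteins, which drop in plasma during inflammation, gave 0 calls among 9 tested genes in limma and a median of 0.0039. Of the 9, 1 had an unadjusted p under 0.05, beside 12.5% of all tested probe sets. With Mug1 added there were 10 genes, 0 calls in limma, 2 unadjusted p-values under 0.05 and a median of 0.0011. The corticosteroid carrier Serpina6 differed by −0.24 ± 0.08 (SE), albumin (Alb) by 0.11 ± 0.06 and transthyretin (Ttr) by 0.07 ± 0.05. Of 14 tested carriers of the NF-kB and interleukin-1 signal, 0 passed, with a median of −0.0095. An unadjusted p under 0.05 was found for 1 of them, beside the same 12.5%. The kinase adaptor Tab1 differed by −0.31 ± 0.14 (SE), the NF-kB subunit Nfkb2 by −0.45 ± 0.20 and the kinase Chuk by 0.12 ± 0.08. The groups overlapped at each of these 6 genes.

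**Figure D3:**
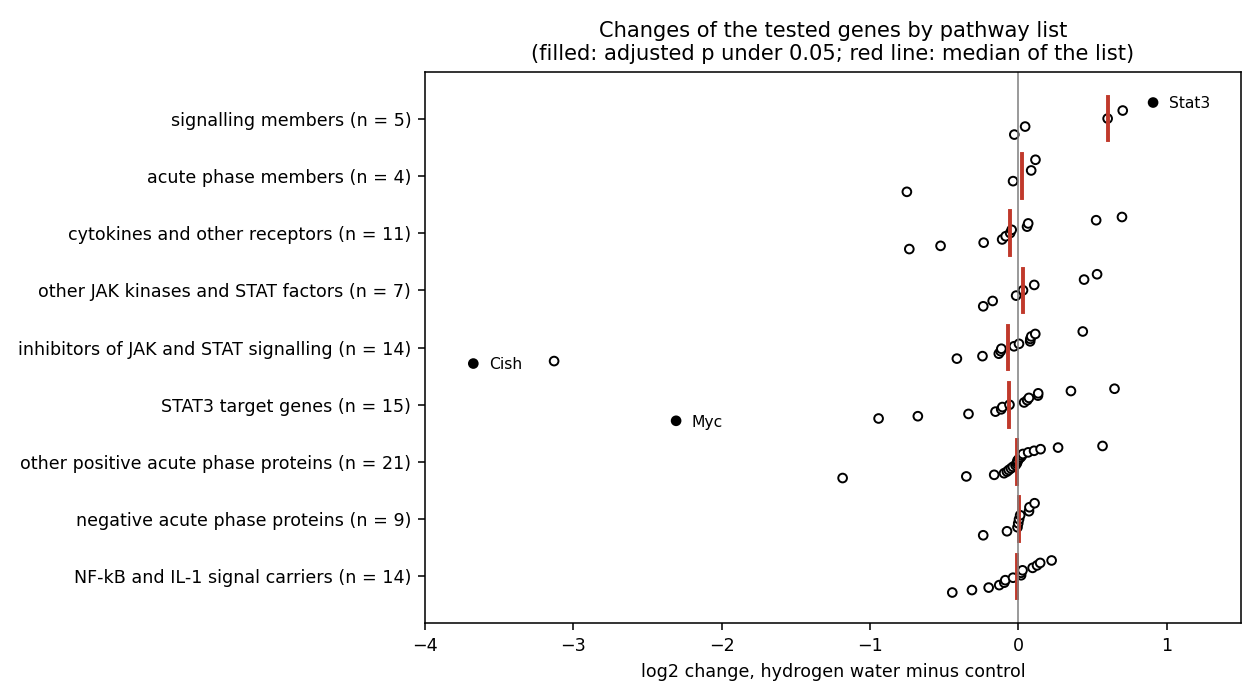
Log2 difference between hydrogen water and control (horizontal axis) of each tested gene, 1 probe set per gene, in the member classes and the 7 other pathway lists, with filled points for an adjusted p under 0.05 and a red line at the median of the tested genes. Stat3, Cish and Myc are the only filled points, and the medians of the 7 other lists lie between −0.07 and 0.03.

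Liver identity and the presence of other cells were read from marker genes. All 11 hepatocyte markers, among them Alb, Ttr and Hnf4a, were above the filter and 0 were called (0 at an unadjusted p under 0.05 in limma). Their summed linear signals were 71240 to 74310 with hydrogen water and 69790 to 74370 in controls. These sums and those below were taken after quantile normalization. It ties bright probe sets such as Alb and Ttr to their rank, so the hepatocyte sums cannot show whether hepatocyte content was the same. Of 13 Kupffer cell and macrophage markers with a probe set 12 were tested and 0 were called, and their summed signals were 4853 to 5582 with hydrogen water and 4394 to 5914 in controls. In that list Cd14 and Lyz2, at 0.27 and −0.41, had an unadjusted p under 0.05, beside 12.5% of all tested probe sets, and in opposite directions. Of 9 endothelial markers 0 were called and 2 had an unadjusted p under 0.05 in limma, beside 12.5% of all tested probe sets. They were Stab2, at 0.42 ± 0.13, and Lyve1, at 0.38 ± 0.13 (SE). The other endothelial markers differed in both directions, and the median of the list was 0.0049. Its summed signals were 3081 to 3702 with hydrogen water and 2943 to 3248 in controls. Neutrophil markers had 2 of 8 and lymphocyte markers 2 of 11 genes above the filter, with 0 calls and 0 unadjusted p-values under 0.05, and S100a8, Cxcr2, Csf3r, Cd3e and Ms4a1 lay below it. Stellate cell and fibroblast markers gave 0 calls among 9 tested genes and cholangiocyte markers 0 among 2, again with 0 unadjusted p-values under 0.05. The part of these cells in the differences of Stat3, Il6r and Il1r1 was not tested.

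The genes most like Stat3 across the arrays were taken as those with the highest Pearson correlation to its brighter probe set over the 8 arrays, among 12216 probe sets of other genes. They were Retreg1 (r = 0.98), which guides pieces of the endoplasmic reticulum to autophagy, Ptdss2 (0.98), which makes phosphatidylserine, Pcyt1a (0.97), the controlling enzyme of phosphatidylcholine synthesis, Numb (0.97), an endocytic adaptor that restrains Notch, and Zfp157 (0.96). With group means removed the 5 correlations were 0.83 to 0.91, and r exceeded 0.9 over the 8 arrays at 88 of the 12216 probe sets. Retreg1 rose by 1.52 ± 0.18, Pcyt1a by 0.68 ± 0.13 and Numb by 0.59 ± 0.11 (SE; adjusted p = 0.00543, 0.0339 and 0.0423), while Ptdss2 and Zfp157 did not pass. Stat3 itself differed between the groups, so a choice by correlation with it favours genes that differ in the same direction. These differences and correlations of the chosen genes are a description only. With an array omitted, Pcyt1a and Numb each passed in 2 of 8 fits, and Retreg1 in all 8.

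**Figure D4:**
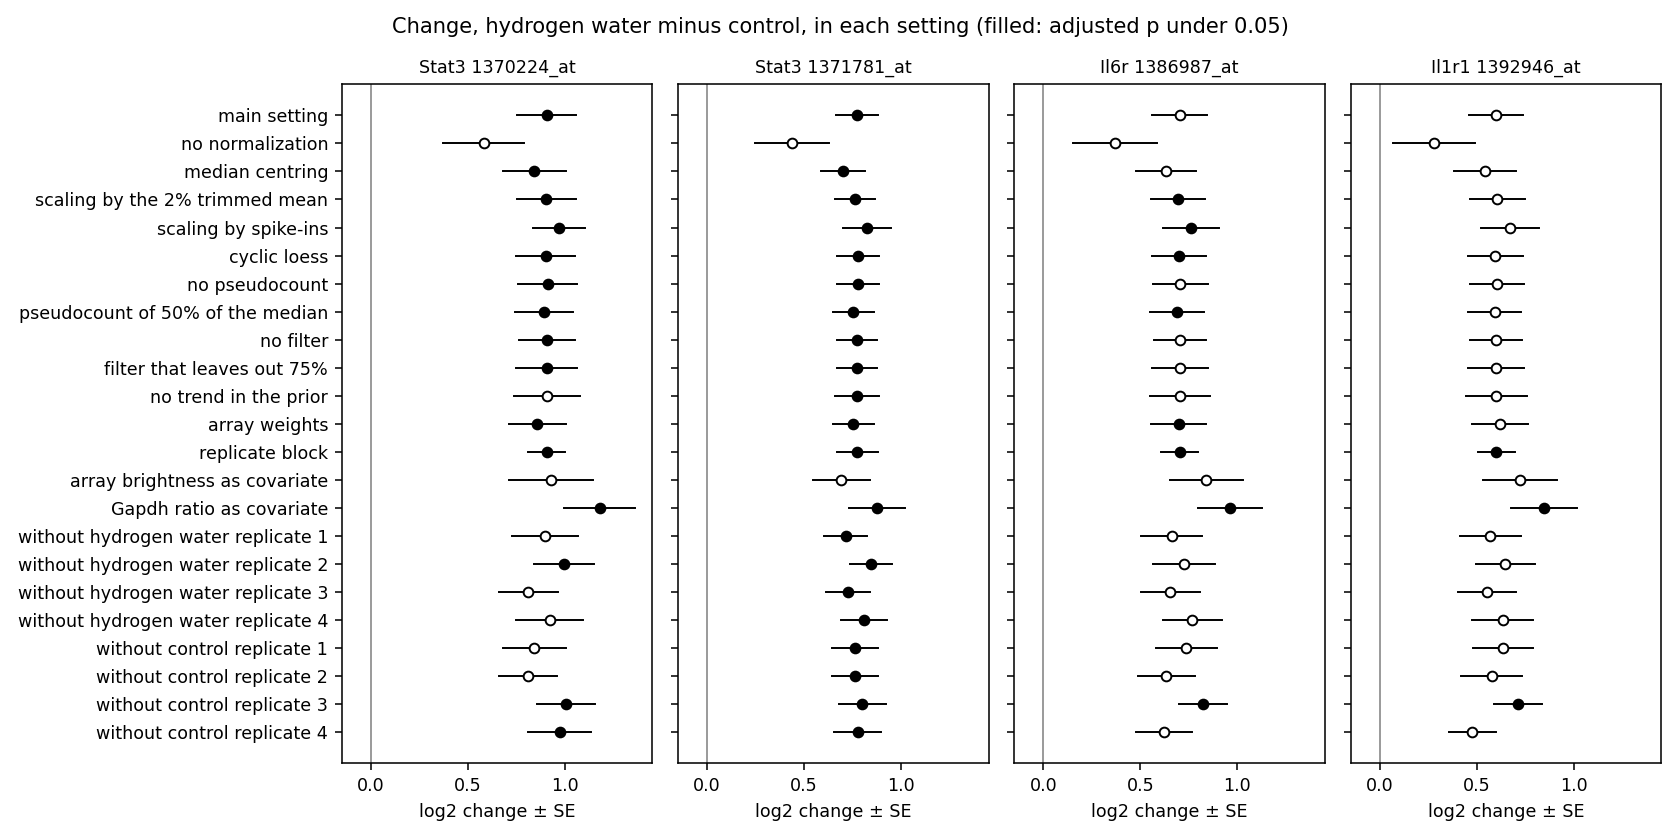
Log2 difference between hydrogen water and control with its SE (horizontal axis) for 4 member probe sets under the main setting, 14 other settings and the 8 fits without 1 array (rows), with filled points for an adjusted p under 0.05. The second Stat3 probe set stays filled in all 8 fits without 1 array, the brighter one in 3 of them, and every point in the 4 panels lies above 0.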

How the data were processed

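Per the labels' protocols, biotinylated RNA prepared from liver total RNA was read on Affymetrix arrays. The deposited values are signal intensities on a linear scale that the authors made with MAS5, per the submitters' processing notes, without a version, scaling target or detection calls in the sources used here. Array medians ran from 17.2 to 26.8, so the 31042 probe sets other than the 57 control probe sets were quantile-normalized, which hides a shift of most transcripts in 1 direction. A pseudocount of 2.05 (10% of the median of 20.5) was added before log2, which understates changes of dim probe sets, and the test covered the 15521 probe sets whose mean log2 signal reached the median, 4.42. The test was limma 3.58.1 (lmFit and eBayes with a trend; R 4.3.3) on group alone, with p-values adjusted by Benjamini-Hochberg. SE and 95% intervals come from this fit, which was tested on simulated data, and the number of arrays limits the precision. Symbols came from the platform annotation, with 20764 of 20832 single symbols matched by Entrez ID to RefSeq (GRCr8) and 0 changed.

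The named genes are all member probe sets, of each pathway list every gene past the threshold and up to 3 others in order of p, and the 5 genes most correlated with Stat3. The second Fga probe set, Stab2, Lyve1, Lyz2 and the correlation of Il6r with Il1r1 were chosen after their values were seen. Members, lists and settings were chosen with earlier results of these arrays known. Alternatives were other scalings, pseudocounts, filters and variance models, covariates, a threshold of 0.10 and leaving out each array. Counting Mug1 as a negative acute phase gene was added after seeing the data.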

Additional observations from a re-analysis of the deposited data

How the results depend on the processing

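The count of 2 called member probe sets became 1 without normalization (A2m) and with a constant prior variance (the second Stat3 probe set), 0 with array brightness as a covariate (limma, 5 at an unadjusted p under 0.05), 5 with the Gapdh ratio as a covariate, 4 at a threshold of 0.10, and 1 to 4 when an array was left out. In the same order the count over all probe sets, 128 in the main setting, became 505, 64, 12, 239 and 353, and 55 to 197 when an array was left out. The Stat3 difference was 0.58 without normalization, 0.91 with a constant prior variance and 0.93 with brightness, none of them past the threshold. It was 1.18 with the Gapdh ratio, past the threshold, and 0.81 to 1.01 when an array was left out. The difference between groups in the median deviation per array of the signal carriers, 0.465 in the main setting, was 0.155 without normalization. That of the secreted products, 0.0049 in the main setting, was −0.237 without normalization, 0.0822 with trimmed mean scaling and 0.147 with spike-in scaling. With the replicate number as a block, 4 member probe sets passed, both of Stat3, that of Il6r and the brightest of Il1r1, and 181 over all, with a Stat3 difference of 0.91 (adjusted p = 0.00785). The SE of this difference was 0.0955 with the block and 0.152 in the main setting. With group means removed, same-numbered arrays had correlations of −0.1, 0.042, 0.194 and −0.003, and 1 of 4 correlated best with its own number. The labels do not pair these arrays, and so few correlations cannot decide whether they share more than a number.

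Signs turned only at probe sets that were not called in the main setting, where their largest difference was 0.27, at Cd14. Il6st probe sets are numbered here from the brightest, 1, to the dimmest, 4. Without normalization signs turned at Il6st 3 (−0.24) and 4 (−0.17), Jak1 (−0.24 and −0.15), Hp (−0.11), Orm1 (−0.087), Cd14 (−0.059), Alb (−0.080), Ttr (−0.15) and Chuk (−0.18), where the median of all probe sets was −0.27. Crp turned to 0.0074 with median centring, 0.072 with trimmed mean and 0.14 with spike-in scaling, and Hpx to 0.019 with trimmed mean and 0.084 with spike-in scaling. Il6st 1 turned to 0.010 with trimmed mean and 0.075 with spike-in scaling, where Il6st 2 turned to 0.024. With brightness Il6st 3 (−0.085) and Alb (−0.011) turned, and with the Gapdh ratio Il6st 3 (−0.20) and 4 (−0.14) and the brighter Jak1 probe set (−0.051). Of the members, leaving out an array turned Il6st alone, with 1 between −0.152 and 0.101, 2 between −0.185 and 0.0289 and 3 between −0.0279 and 0.191. Of 349 member values under alternatives, 303 kept their direction and side of the threshold, and of 644 for the other named probe sets 599 did. The cause was not tested. The number of arrays, and for Socs3, A2m and Cish a signal near the filter, limit these comparisons.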
